A study of Homo sapiens with 9 samples.

Results

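The baseline transcriptome of MDA-MB-468 cells was read from the 3 libraries that carry the control hairpin shNC, out of 9 libraries in the series, and all 31004 measured genes were ranked by their mean FPKM in these 3. MDA-MB-468 is an established human breast cancer line of the basal-like, triple-negative type, labelled WT for genotype. The cells grew in DMEM with 10% fetal bovine serum, received lentiviral particles at an MOI of 10, and stable lines were then obtained under 1 µg/mL puromycin; the labels mention no cloning. The libraries are told apart by replicate number alone, and the labels do not say whether they came from separate cultures, so the spread between them may be technical. Each was made from 2 µg of total RNA and held 15753538, 15264583 and 17399995 reads in genes for replicates 1, 2 and 3. FPKM divides the reads of a gene by its length and by the total depth, so levels of different genes can be set side by side roughly. For 82.2% of genes with a GENCODE 29 model this length lay within 2% of all exons of the model joined. It is not the length of the transcript that the cells made, so ranks and ratios between genes depend on it.

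Breast ducts are lined by luminal cells, which carry simple keratins and respond to hormones through the oestrogen receptor, and by a basal layer that carries keratins of stratified epithelia. Basal-like tumours lack oestrogen and progesterone receptors and gain of ERBB2, and many express basal keratins beside simple ones. This line is also known for extra copies of EGFR, loss of SMAD4, and lack of functional RB protein, all of which is background and not a result.

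A limited set of transcripts held most of the signal. In all 3 libraries 10540 genes (34.0%) reached 1 FPKM, 1554 lay on both sides of it, and 18910 stayed under it. Of the 16436 protein-coding genes 9636 (58.6%) reached 1 FPKM in all 3, with a median level of 2.43 FPKM, against a median of 0.246 FPKM over all genes. That 58.6% is the background for each count of list members at 1 FPKM given below. For counts under 0.1 FPKM in all 3 the background is 19.0% of protein-coding genes, and for counts at 0 in all 3 it is 5.59%. Only 392 genes had a mean of 100 FPKM or more and 24 of 1000 or more. The 10 highest genes held 20.7%, 20.8% and 17.4% of the summed FPKM in replicates 1, 2 and 3. The 100 highest held 38.6%, 39.3% and 35.1%, and the 1000 highest held 67.6%, 68.1% and 65.4%. Replicate 3 was the least concentrated, with 352 genes needed for the first 50% of the signal, against 280 and 264 in replicates 1 and 2.

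**Figure D1:**
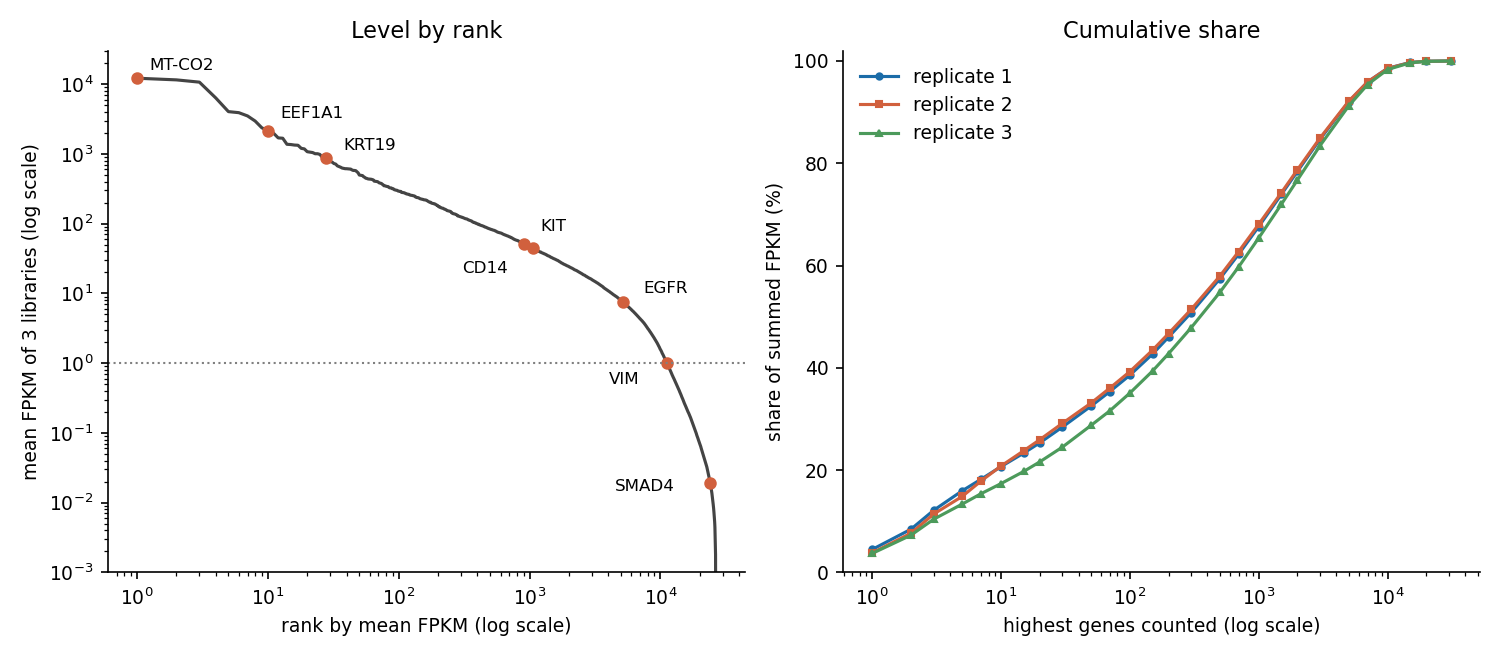
Mean FPKM of the 3 control libraries by rank, both axes on a log scale, with 8 genes marked and a dotted line at 1 FPKM (left), and the cumulative share of the summed FPKM against the number of highest genes counted, on a log scale, for each library (right). KRT19 sits at rank 28 and EGFR at rank 5149, and the curve of replicate 3 runs below the other 2 until nearly all of the signal is counted.

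Mitochondrially encoded transcripts, most of which code for subunits of the respiratory chain and ATP synthase, filled the head of the ranking. MT-CO2, a subunit of cytochrome c oxidase, was first with 13660.0, 11856 and 10846 FPKM, followed by MT-CO3 (mean 11475 ± 915 FPKM), MT-CO1 (10647 ± 1335 FPKM), MT-ND4 (6324 ± 1186 FPKM) and MT-CYB (4023 ± 481 FPKM; SD, n = 3 here and below). The 13 protein-coding genes of mitochondrial DNA held 20.95%, 20.3% and 16.8% of the summed FPKM in replicates 1, 2 and 3 but only 6.46%, 6.45% and 4.96% of the reads, since these genes are short. MT-ATP6, MT-ND1, MT-ND2, MT-ND5 and MT-ND3 were also among the 20 highest genes. So were the ribosomal RNA genes MT-RNR2 and MT-RNR1 and the tRNA gene MT-TP, which code for no protein. The nuclear genes in that group were EEF1A1, the elongation factor that brings tRNAs to the ribosome (2146 ± 252 FPKM, rank 10), the cytoplasmic actins ACTB (1691 ± 211 FPKM) and ACTG1 (1198 ± 159.7 FPKM), the actin-binding thymosins TMSB10 (1357 ± 61.5 FPKM) and TMSB4X (1177 ± 123 FPKM), and the ribosomal proteins RPS12 (1369 ± 143 FPKM) and RPS2 (1072 ± 136 FPKM). The 83 genes for ribosomal proteins held 6.82%, 7.15% and 6.99% of the signal, a range much narrower than that of the mitochondrial genes.

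The 4 genes chosen to mark the line were all measured well above 1 FPKM, at different heights. CD14 (ENSG00000170458, chromosome 5, 140631728 to 140633701, minus strand; hg38), a co-receptor for bacterial lipopolysaccharide best known from monocytes, had 34.6, 46.3 and 52.6 FPKM, a mean of 44.5 ± 9.15 FPKM at rank 1058. FBLN1 (ENSG00000077942, chromosome 22, 45502238 to 45601135, plus strand), the extracellular matrix protein fibulin-1, had 41.1, 50.5 and 35.8 FPKM, at rank 1102. KRT5 (ENSG00000186081, chromosome 12, 52514575 to 52520530, minus strand), a keratin of basal epithelial cells, had 48.6, 31.5 and 39.9 FPKM, at rank 1178. These genes lay close together, and their ranges overlapped. In bulk RNA, fewer cells with a transcript and less of it per cell cannot be told apart, which applies to every level given. EGFR (ENSG00000146648, chromosome 7, 55019017 to 55211628, plus strand), the receptor for epidermal growth factor, had 8.07, 7.12 and 7.49 FPKM, a mean of 7.56 ± 0.481 FPKM at rank 5149, on 1594, 1362 and 1634 reads. Its lowest library was far above the 1 FPKM line, and its highest was far below the lowest value of each other marker. The level of EGFR was thus moderate in a line known for extra copies of the gene; what this value owes to the counting of reads was not tested, and other genes' exons cover 1.49% of its exonic bases.

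CpG content before the start site did not follow the level in the genes shown. The sequences are the 250 bases upstream of a RefSeq start site on build GRCh38.p14 that is also the start of the measured gene model, written 5′ to 3′ on the strand of the gene with every CG in capitals. They set EGFR beside KDR, the VEGF receptor that these cells also expressed, and CDH2, which encodes N-cadherin and was at 0. The windows lie at chr7:55018767-55019016 (plus strand) for EGFR, chr4:55125596-55125845 (minus strand) for KDR and chr18:28177131-28177380 (minus strand) for CDH2.
EGFR: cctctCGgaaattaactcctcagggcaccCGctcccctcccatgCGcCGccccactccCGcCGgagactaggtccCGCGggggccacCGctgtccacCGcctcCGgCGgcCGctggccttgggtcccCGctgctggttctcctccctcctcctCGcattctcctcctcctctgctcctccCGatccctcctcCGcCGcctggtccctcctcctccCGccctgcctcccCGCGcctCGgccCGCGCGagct
KDR: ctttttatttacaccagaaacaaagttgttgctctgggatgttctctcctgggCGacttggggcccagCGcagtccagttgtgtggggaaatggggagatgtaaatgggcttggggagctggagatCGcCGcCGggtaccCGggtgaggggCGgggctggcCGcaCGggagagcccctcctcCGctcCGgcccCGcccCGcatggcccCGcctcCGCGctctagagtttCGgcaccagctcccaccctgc
CDH2: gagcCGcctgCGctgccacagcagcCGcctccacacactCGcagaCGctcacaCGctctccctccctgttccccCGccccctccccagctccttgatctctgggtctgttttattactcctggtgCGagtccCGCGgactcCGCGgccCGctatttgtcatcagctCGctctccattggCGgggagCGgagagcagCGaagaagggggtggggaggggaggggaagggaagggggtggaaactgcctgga
EGFR, at 7.56 FPKM, had 25 CG pairs in this window. KDR, at 23.8 FPKM, and CDH2, at 0 in all 3 libraries, had 17 each. Among 12987 protein-coding genes with a matched window the median was 19.

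Keratins of both epithelial layers were present together, led by the simple keratin KRT19. Of the 45 keratin genes measured, 17 reached 1 FPKM in all 3 libraries, 16 stayed under 0.1 FPKM and 8 of those were at 0 in all 3. KRT19 (ENSG00000171345, chromosome 17, 41523617 to 41528308, minus strand), a small acidic keratin of ductal and other simple epithelia, had 800.5, 1020.1 and 770.2 FPKM, rank 28 of all genes. It alone held 48.7 ± 0.338% of the summed keratin FPKM (SD, n = 3), a share that varied much less between libraries than the level itself.

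Of the 7 simple keratins 6 reached 1 FPKM in all 3 libraries. KRT8 and KRT18, which pair in simple epithelia, had 184, 269.9 and 204 FPKM and 70.1, 83.9 and 71.8 FPKM. KRT8 was thus 2.89 ± 0.3002 times as high as KRT18 (SD, n = 3). KRT7, a keratin of glandular ducts, had 152, 163 and 146 FPKM. KRT80 had a mean of 18.3 ± 1.98 FPKM and KRT23 of 3.11 ± 0.748 FPKM. KRT20, an intestinal keratin, had 0, 0.103 and 0.0601 FPKM and was the exception.

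Among 18 keratins of basal and stratified epithelia, 7 reached 1 FPKM in all 3 libraries and 5 stayed under 0.1. KRT6B, found in suprabasal and activated epidermis, had 119, 172 and 90.7 FPKM, the highest of this list. KRT6A had 0.0434, 0 and 0.0393 FPKM and KRT6C 0, 0 and 0.0788 FPKM. These 3 genes are close copies of each other, so the way reads were shared among them is uncertain. KRT14, the partner of KRT5 in basal cells, had 33.5, 33.3 and 45.8 FPKM, a range that overlapped that of KRT5. KRT15 had 12.04, 25.9 and 19.3 FPKM and KRT17 19.9, 22.9 and 9.798 FPKM, both with a spread of more than 2-fold between their lowest and highest libraries. KRT10, of differentiating epidermis, had 13.1 ± 2.14 FPKM and KRT16 10.02 ± 2.405 FPKM, while KRT78 was at 0 in all 3 libraries. Of 15 hair keratins, KRT81 stood out with 153, 192 and 139 FPKM, rank 223. KRT38, KRT86 and KRT83 were the others at 1 FPKM or more in all 3, with means of 3.43, 3.15 and 1.98 FPKM. KRT81, KRT83 and KRT86 are close copies, which makes their separate levels uncertain.

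**Figure D2:**
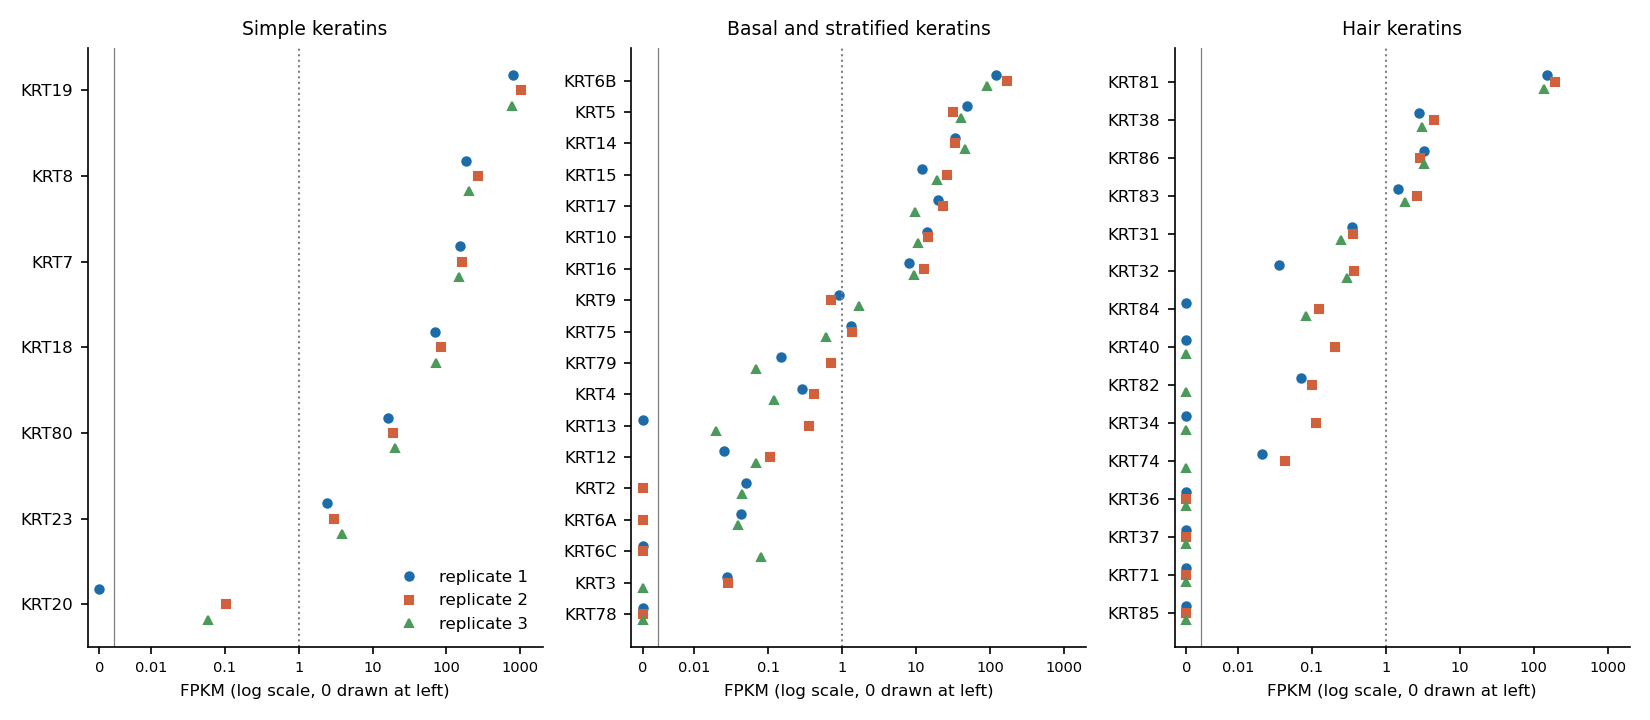
FPKM of each measured keratin on 3 lists in the 3 control libraries (log scale, with values of 0 drawn at the left of the thin line; dotted line at 1 FPKM). KRT19 is highest at 770.2 to 1020.1 FPKM, and KRT81 lies apart from the other hair keratins at 139 to 192 FPKM.

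Transcription factors of both the basal and the luminal list were present, and the levels of their members overlapped. Of 12 measured factors linked with basal-like or progenitor cells, 9 reached 1 FPKM in all 3 libraries, with a median level of 15.5 FPKM. SOX9, a factor of epithelial progenitors, had 57.8, 50.7 and 54.5 FPKM. VGLL1, a cofactor of TEAD proteins, had 47.4, 43.3 and 46.9 FPKM, and MYC, a driver of growth genes, had 43.4, 54.9 and 30.03 FPKM. Behind them came TFCP2L1 (28.01 ± 1.92 FPKM), SOX4 (27.7 ± 2.88 FPKM), KLF5 (18.3 ± 1.04 FPKM), the homeobox factor EN1 (12.7 ± 0.915 FPKM) and the forkhead factor FOXC1 (5.83 ± 0.549 FPKM), which is widely used as a marker of basal-like tumours. ID4, an inhibitor of helix-loop-helix factors, had 6.504, 2.81 and 7.74 FPKM, with replicate 2 below the other libraries. TP63, the master regulator of basal epithelial cells, had 1.595, 0.298 and 1.73 FPKM, so replicate 2 was under 1 FPKM and the other 2 above it. SOX10, a factor of neural crest and of some triple-negative tumours, had 0.0155, 0.0961 and 0 FPKM, and BCL11A 0.0181, 0.00534 and 0.0187 FPKM; both were near 0.

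Of the 9 luminal genes measured, 6 reached 1 FPKM in all 3 libraries, with a median of 3.44 FPKM. XBP1, a factor of the secretory pathway, had 18.3, 19.3 and 21.4 FPKM. GATA3, a central luminal factor, had 14.1, 11.5 and 12.4 FPKM, and all its values were above those of FOXA1 (3.19, 3.66 and 3.46 FPKM), the pioneer factor for the oestrogen receptor. ELF5, a factor of luminal progenitors and milk-producing cells, had 3.96, 4.76 and 5.92 FPKM, SPDEF 3.88, 2.67 and 5.01 FPKM and TBX3 2.32, 1.68 and 2.198 FPKM. ESR1, the oestrogen receptor itself (ENSG00000091831, chromosome 6, 151656691 to 152129619, plus strand), had 0.151, 0.147 and 0.158 FPKM, on 33, 31 and 38 reads, a low level that was close to equal in all 3 libraries. The prolactin receptor PRLR had 0.235 ± 0.00488 FPKM, and TFAP2B was at 0 in all 3. PGR was not analysed here.

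**Figure D3:**
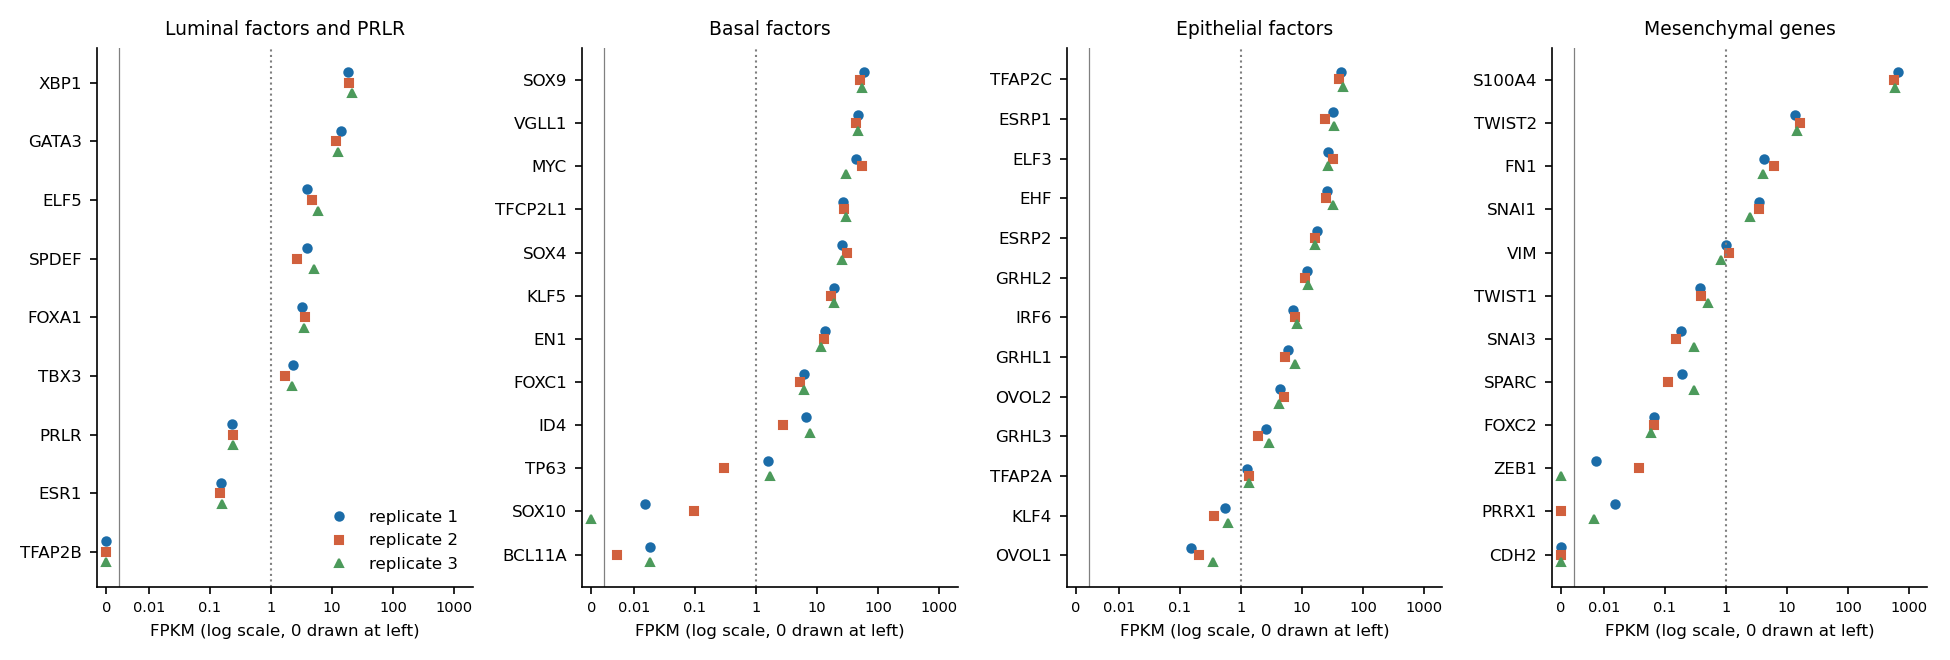
FPKM of the measured members of 4 lists in the 3 control libraries (log scale, with values of 0 drawn at the left of the thin line; dotted line at 1 FPKM). SOX9, VGLL1 and MYC lie at 30.03 to 57.8 FPKM, while ESR1 lies at 0.147 to 0.158 FPKM and TFAP2B and CDH2 are at 0.

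The cells carried the transcripts of an epithelium, and most mesenchymal genes measured were low. Of 20 genes for epithelial junctions and adhesion 19 reached 1 FPKM in all 3 libraries. EPCAM, an adhesion molecule of epithelia, had 176, 159 and 177 FPKM. The tight junction claudins CLDN3 (93.5 ± 2.18 FPKM) and CLDN4 (66.6 ± 4.21 FPKM) exceeded CLDN7 (42.1 ± 4.24 FPKM) and CLDN1 (33.97 ± 6.84 FPKM). CDH1, which encodes E-cadherin, had 35.9, 31.1 and 31.9 FPKM, and CDH3, the P-cadherin of basal cells, had 26.3, 26.3 and 25.3 FPKM. The desmosomal genes JUP (58.2 FPKM), PKP3 (46.5 FPKM), DSP (39.2 FPKM), DSG2 (14.6 FPKM), PKP1 (13.1 FPKM), DSC3 (12.5 FPKM) and DSC2 (9.78 FPKM) were all present. DSG3, a desmoglein of stratified epithelia, had 1 read in the 3 libraries together. Epithelial factors followed the same pattern, with 11 of 13 at 1 FPKM or more in all 3. TFAP2C had 42.9, 39.998 and 47.1 FPKM, the splicing regulator ESRP1 32.8, 23.5 and 33.4 FPKM, ELF3 27.1, 32.2 and 26.9 FPKM and GRHL2 12.3, 11.3 and 12.6 FPKM. KLF4 (0.508 FPKM) and OVOL1 (0.235 FPKM) were the 2 under 1 FPKM.

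Of 12 mesenchymal genes 4 reached 1 FPKM in all 3 libraries, beside a background of 58.6% among protein-coding genes. CDH2 was at 0 in all 3 libraries, where 0 reads over the 3 libraries allow a mean of up to 0.0134 FPKM by the limit of 3 reads in all. ZEB1, a repressor of epithelial genes, had 0.00734, 0.0379 and 0 FPKM. VIM, the intermediate filament protein vimentin, had 1.01, 1.14 and 0.821 FPKM; exons of other genes cover 24.4% of its exonic bases, and what this takes from its count was not tested. EPCAM was 177 ± 38.1 times as high as VIM (SD, n = 3). SNAI1 (3.11 ± 0.566 FPKM), FN1 (4.83 ± 1.17 FPKM) and TWIST2 were the factors and matrix gene above 1 FPKM, and TWIST2, with 13.3, 16.5 and 14.5 FPKM, was higher than TWIST1 (0.381, 0.394 and 0.518 FPKM) in every library. S100A4, a calcium-binding protein linked with motility, had 671, 559.6 and 595 FPKM and was by far the highest of this list.

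Among 54 receptor tyrosine kinases measured, 25 reached 1 FPKM in all 3 libraries, 5 lay on both sides of it and 9 stayed under 0.1. Over all protein-coding genes 58.6% reached 1 FPKM in all 3 and 19.0% stayed under 0.1. DDR1, a collagen receptor of epithelia, had 56.5, 65.7 and 49.3 FPKM, rank 809. KIT, the stem cell factor receptor of luminal progenitors, had 49.8, 50.3 and 53.04 FPKM, a narrow range that overlapped that of DDR1. EPHB4 had 27.8, 33.8 and 25.4 FPKM, and KDR, the endothelial receptor for VEGF, had 24.4, 20.3 and 26.7 FPKM. RYK (22.7 FPKM), EPHA2 (21.6 FPKM), EPHB3 (21.3 FPKM) and PTK7 (21.1 FPKM) completed the 8 highest. EGFR was the 12th, and KIT was 6.77 ± 0.522 times and DDR1 7.60 ± 1.42 times as high as EGFR (SD, n = 3). In the EGFR family, ERBB3 had 10.4, 9.09 and 10.7 FPKM, EGFR 8.07, 7.12 and 7.49 FPKM, ERBB2 4.84, 5.68 and 4.51 FPKM and ERBB4 0.541, 0.312 and 0.702 FPKM. The values of the 4 receptors did not overlap. MET, the receptor for hepatocyte growth factor, had 2.13, 1.14 and 1.43 FPKM, and AXL, common in mesenchymal-like lines, had 0.0865, 0 and 0.0895 FPKM. The 9 under 0.1 FPKM in all 3 included PDGFRB (0.0258 FPKM), FLT1 (0.0166 FPKM) and TEK (0.0219 FPKM).

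Ligands of the EGFR family were scarce. Of 9 measured, TGFA alone reached 1 FPKM in all 3 libraries, with 3.26, 3.88 and 4.31 FPKM. BTC (1.44, 0.839 and 1.41 FPKM) and HBEGF (1.02, 0.767 and 0.922 FPKM) lay on both sides of 1, EGF had 0.577 ± 0.05896 FPKM and AREG 0.449 ± 0.106 FPKM, and EPGN was at 0. Several genes beside EGFR on chromosome 7 had higher levels. SEC61G, a subunit of the protein channel of the endoplasmic reticulum, had 107, 133 and 105 FPKM, 15.3 ± 2.97 times the level of EGFR (SD, n = 3). LANCL2 had 15.1 ± 1.201 FPKM, VOPP1 20.6 ± 1.45 FPKM, CCT6A 224 ± 17.5 FPKM and CHCHD2 771 ± 58.4 FPKM. Of 13 genes of this neighbourhood, EGFR included, 10 reached 1 FPKM in all 3 libraries.

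Of 40 nuclear receptor genes measured, ESR1 and ESR2 included, 23 reached 1 FPKM in all 3 libraries, a share close to the 58.6% of all protein-coding genes. The orphan receptor NR2F6 had 49.2, 55.04 and 41.05 FPKM and ESRRA, a regulator of mitochondrial genes, had 27.5, 34.1 and 28.6 FPKM. RARG (17.1 FPKM), NR1H2 (12.1 FPKM), RXRB (11.5 FPKM), the vitamin D receptor VDR (10.9 FPKM), THRA (10.7 FPKM) and PPARD (8.73 FPKM) followed. NR3C1, the glucocorticoid receptor, had 2.35, 1.69 and 2.31 FPKM. ESR2, the second oestrogen receptor, had 0.0136, 0.02104 and 0.0492 FPKM, and HNF4A, a liver and gut factor, was at 0.

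Of 43 cytokine and TNF receptor genes measured 25 reached 1 FPKM in all 3 libraries, again close to the 58.6% of all protein-coding genes. IL27RA had 40.7, 36.8 and 33.4 FPKM, and TNFRSF12A, the receptor for TWEAK, had 30.5, 42.4 and 34.3 FPKM. IFNGR1 (26.6 FPKM), TNFRSF1A, the main TNF receptor (18.3 FPKM), IL13RA1 (17.6 FPKM), LTBR (14.3 FPKM), the TRAIL receptor TNFRSF10B (12.5 FPKM) and IFNGR2 (10.8 FPKM) were next. IFNAR1, a chain of the type I interferon receptor, had 7.52 ± 1.13 FPKM, while its partner chain IFNAR2 had 0.0413, 0 and 0.0124 FPKM; exons of other genes cover 83.2% of IFNAR2, and what this takes from its count was not tested. Chemokine receptors were mostly silent. Of 17 measured, CCR1 alone reached 1 FPKM in all 3 libraries (5.25, 8.59 and 6.95 FPKM) and 10 stayed under 0.1. CXCR4 had 0.517, 0.741 and 0.286 FPKM.

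Of 22 chemokines measured 9 reached 1 FPKM in all 3 libraries. CXCL16, a chemokine made in a membrane-bound form, had 26.6, 34.3 and 21.4 FPKM. CCL2, which attracts monocytes, had 20.3, 22.2 and 19.6 FPKM, and the neutrophil chemokines CXCL1, CXCL8 and CXCL3 had 17.6, 16.8 and 19.02 FPKM, 8.19, 9.04 and 9.52 FPKM and 3.66, 3.45 and 2.95 FPKM. CCL28 (6.49 FPKM), CX3CL1 (6.43 FPKM), CCL20 (2.15 FPKM) and CXCL10 (1.94 FPKM) were the other 4. CXCL12, the ligand of CXCR4, had 1 read in the 3 libraries together. Of 29 interleukins and other cytokines only 5 reached 1 FPKM in all 3, and 12 stayed under 0.1. They were CSF1, the macrophage growth factor (19.3, 14.7 and 12.5 FPKM), TNF (11.3, 15.4 and 7.81 FPKM), IL18 (3.19, 3.52 and 2.93 FPKM), LIF (1.67, 4.18 and 1.899 FPKM) and IL34 (2.13, 1.73 and 2.57 FPKM). IL6 had 0.613, 0.633 and 0.583 FPKM, with 20.7% of its exonic bases shared with other genes, and IL1B was at 0 in all 3 libraries. MIF had 0.174, 0.359 and 0.0787 FPKM, with 61.9% of its exonic bases shared, so its low value is uncertain.

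Of 37 growth factors 20 reached 1 FPKM in all 3 libraries, beside 58.6% of all protein-coding genes. HDGF had 325, 354 and 339 FPKM, and the progranulin gene GRN had 65.99, 67.7 and 60.6 FPKM. VEGFB (24.4 FPKM) exceeded VEGFA (3.92 FPKM) in every library. TGFB1 had 14.6, 14.7 and 11.8 FPKM, midkine (MDK) 7.95, 15.6 and 6.697 FPKM and FGF2 8.7004, 6.93 and 9.53 FPKM. HGF, the ligand of MET, had 1 read in the 3 libraries together. Of 39 matrix proteins 19 reached 1 FPKM in all 3, beside the same 58.6%. CCN2 and CCN1, which are targets of YAP in many cells, had 137, 153 and 81.1 FPKM and 61.6, 84.2 and 59.1 FPKM, and AGRN, which encodes agrin, had 67.3, 64.1 and 47.9 FPKM. The laminin chains LAMB2 (36.8 FPKM), LAMB3 (29.8 FPKM), LAMC1 (28.03 FPKM) and LAMA5 (22.1 FPKM) were present, while LAMA3, the alpha chain that pairs with LAMB3 in epithelial laminin, had 0.255, 0.28999 and 0.266 FPKM. COL1A1, the chief fibrillar collagen chain of fibroblasts, had 0.754, 0.683 and 1.08 FPKM.

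The elastase inhibitor gene PI3 had the highest 3-library mean among the chemokine, cytokine, growth factor, matrix and protease lists, a place that rests on replicate 1. Of 39 proteases and inhibitors 27 reached 1 FPKM in all 3 libraries, beside 58.6% of all protein-coding genes. PI3, which encodes elafin, had 606, 322 and 352 FPKM, with replicate 1 above the other 2. The growth factor HDGF, with 325, 354 and 339 FPKM, was above PI3 in replicate 2. Without replicate 1 the means were 337 FPKM for PI3 and 347 FPKM for HDGF. SLPI, a related inhibitor, had 265, 261 and 212 FPKM, and LCN2, which binds bacterial siderophores, had 204, 185 and 154 FPKM. The membrane protease ST14 had 114, 121 and 104 FPKM, and its inhibitor SPINT1 46.8, 52.97 and 47.05 FPKM. The kallikrein KLK5 had 99.95, 90.7 and 81.5 FPKM, above KLK6 (25.6, 30.6 and 15.7 FPKM) and KLK10 (17.5, 14.8 and 9.74 FPKM). MMP15 (25.1 FPKM) was the highest matrix metalloprotease of the list, MMP14 had 0.242, 0.235 and 0.245 FPKM, and MMP3 was at 0. PLAU, the urokinase gene, had 11.7, 13.7 and 7.11 FPKM. Of 25 integrin chains 12 reached 1 FPKM in all 3, beside the same 58.6%. They were led by ITGB1 (37.8, 36.6 and 47.8 FPKM), ITGB5 (33.7, 25.3 and 33.3 FPKM) and ITGB4, the chain of hemidesmosomes (15.1, 11.4 and 13.99 FPKM).

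**Figure D4:**
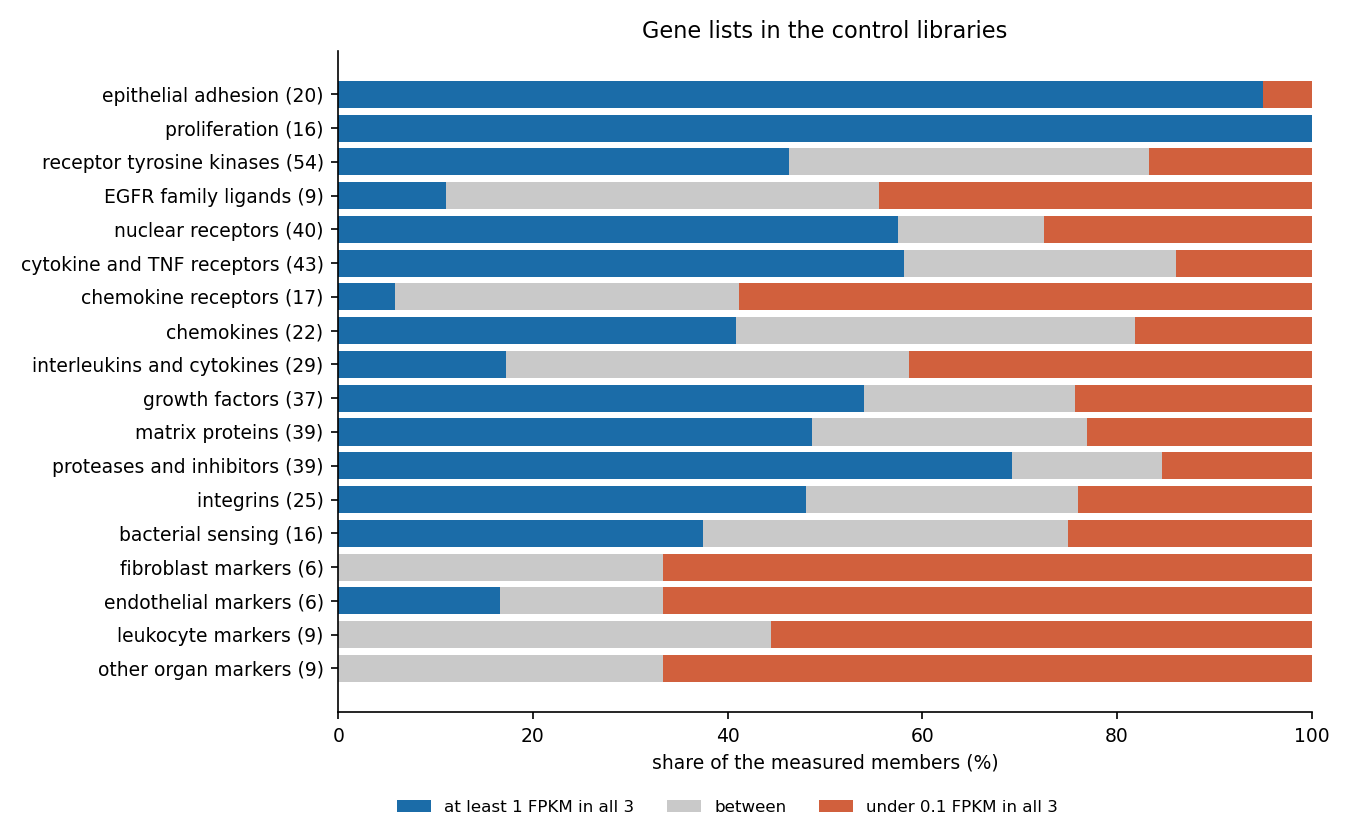
Share of the measured members of 18 gene lists that had at least 1 FPKM in all 3 control libraries, under 0.1 FPKM in all 3, or values between these (percent of members, with the number measured in brackets). All 16 proliferation genes and 19 of 20 adhesion genes reached 1 FPKM, against 1 of 17 chemokine receptors and none of 6 fibroblast and 9 leukocyte markers.

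CD14 stood beside an incomplete set of its usual partners. Of 16 genes for sensing bacteria 6 reached 1 FPKM in all 3 libraries. These were CD14, the adaptors MYD88 (14.2, 15.5 and 12.2 FPKM) and TICAM1 (9.51, 11.8 and 7.51 FPKM), the receptors TLR1 (4.89, 4.34 and 6.01 FPKM) and TLR6 (3.18, 2.7995 and 3.13 FPKM), and NOD1 (1.37, 2.03 and 1.78 FPKM). TLR2, which pairs with TLR1 and TLR6, had 0.426, 0.4895 and 0.363 FPKM. LY96, which encodes the MD-2 protein that binds lipopolysaccharide, and LBP, which carries it to CD14, were at 0 in all 3 libraries. A count of 0 reads allows a mean of up to 0.111 FPKM for LY96 and 0.0339 FPKM for LBP. TLR9 was also at 0, with 86.3% of its exonic bases shared with other genes, and TLR4 was not analysed here. In the HLA list, the class I genes HLA-B (68.7, 86.6 and 47.96 FPKM) and HLA-C (15.97, 21.9 and 14.99 FPKM) and B2M (133, 121 and 123 FPKM) were present, whereas HLA-DRA had 0.357, 0.0526 and 0.185 FPKM and CIITA, the switch for class II genes, 0.312, 0.161 and 0.161 FPKM. HLA genes resemble each other, so their separate levels are uncertain.

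SMAD4 was close to silent, unlike most tumour suppressors measured. SMAD4 (ENSG00000141646, chromosome 18, 51028394 to 51085045, plus strand), the common mediator of TGF-beta signals, had 0.0338, 0.01497 and 0.00876 FPKM, on 7, 3 and 2 reads. Of 13 genes in its neighbourhood on chromosome 18, itself included, 6 reached 1 FPKM in all 3 libraries, beside 58.6% of all protein-coding genes. In that neighbourhood ELAC1 was also low, with 0.1598, 0.115 and 0.0579 FPKM, while ME2 had 5.18, 4.02 and 5.37 FPKM and MEX3C 5.69, 6.06 and 5.07 FPKM. RB1, the retinoblastoma protein that restrains the cell cycle, had 1.59, 1.31 and 1.45 FPKM, on 162, 129 and 163 reads. Of 27 tumour suppressors 24 reached 1 FPKM in all 3. CDKN2A, which encodes p16 and ARF, had 28.2, 27.3 and 29.3 FPKM. All 16 proliferation genes reached 1 FPKM in all 3 libraries, with CDC20 (214, 194 and 205 FPKM), PCNA (192, 171 and 203 FPKM), CCNB1 (194, 140.1 and 198 FPKM) and MCM7 (165, 173 and 163 FPKM) at the top and MKI67, which encodes Ki-67, at 22.8, 18.7 and 22.9 FPKM. Among oncogenes CCNE1, which encodes cyclin E, had 28.4, 30.9 and 27.7 FPKM and CCND1, which encodes cyclin D1, 14.5, 17.001 and 12.2 FPKM.

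In all 3 libraries 4603 genes (14.8%) were at 0 and 9682 (31.2%) stayed under 0.1 FPKM. Every gene of the table had at least 1 read in some library of the series, so the number at 0 counts these genes alone. Of the 4603, 918 were protein-coding, which is 5.59% of the protein-coding genes. The others included 873 of 2887 processed pseudogenes, 767 of 3125 lincRNA genes and 638 of 3261 antisense genes. Runs were sought among neighbours in the measured protein-coding genes, so genes that were not measured may lie between them. The longest such run at 0 held 4 genes on chromosome 12 (84859491 to 85301784), SLC6A15, TSPAN19, LRRIQ1 and ALX1. The cytokine genes IL19, IL20 and IL24, neighbours on chromosome 1 (206770764 to 206904139), were also at 0 together, as were PLA2G2C, UBXN10 and VWA5B1 on the same chromosome (20161253 to 20354894). At the other end, runs of 4 neighbours within the 1000 highest genes were TPM3, C1orf43, UBAP2L and HAX1 on chromosome 1 (154155304 to 154275875) and TUBB, FLOT1, IER3 and DDR1 on chromosome 6 (30720352 to 30900156).

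Markers of fibroblasts, leukocytes, other organs and endothelium were mostly low, with KDR as the exception among those of endothelium. The summed level ranged from 0.796 to 1.33 FPKM for 6 fibroblast markers, with LUM and THY1 at 0, and from 0.281 to 1.01 FPKM for 9 leukocyte markers, with CD68 at 0 and PTPRC, which encodes CD45, on 1 read in all. CD68 shares 85.8% of its exonic bases with other genes. The 6 endothelial markers summed to 20.8 to 27.4 FPKM, nearly all of it from KDR (24.4, 20.3 and 26.7 FPKM), which alone reached 1 FPKM, while CDH5, the cadherin of endothelial junctions, had 0.0104, 0.0215 and 0.0189 FPKM and VWF 0.0305, 0.0252 and 0.0166 FPKM. The 9 markers of other organs, such as APOA1 and TG, both at 0, summed to 0.496 to 0.707 FPKM. Milk and secretory luminal products were mixed, with MUC1 at 10.2, 11.4 and 6.37 FPKM and AGR2 at 2.66, 3.27 and 3.24 FPKM, and with LALBA, AGR3 and SCGB1D2 at 0. Of 5 milk proteins 2 reached 1 FPKM in all 3 libraries, and of 10 apocrine and luminal products 4 did. Their summed levels ranged from 12.6 to 19.2 FPKM and from 782 to 1037 FPKM. Most of the second sum came from the cytoskeletal keratin KRT19, at 800.5, 1020.1 and 770.2 FPKM, and so does not speak of secreted products.

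The overlap of gene models went along with low values. Of 8775 protein-coding genes whose exons overlap no other gene 57.7% reached 1 FPKM in all 3 libraries, and of 7125 with an overlap up to 50% of their exonic bases 63.0% did. Of 445 genes with an overlap of 50 to 90% only 16.2% did, and of 78 with more than 90% only 3.85% did, with a median of 0.0076 FPKM. Overlap was measured on the GENCODE 29 exons without regard to strand, and the part that the counting of shared reads had in these values was not tested. Among list members, IL2RG, IFNAR2, CXCR5, MIF, ITGB3, TLR9, CD68, HOXA7 and HOXC5 were under 1 FPKM with an overlap above 50%, and CTSD, at 14.2 FPKM, had 52.7%.

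Level classes also differed in gene length, but length is a divisor of FPKM, so it is not independent of the classes. The median length of the gene model was 2696 bp for 359 protein-coding genes at 100 FPKM or more, 4308 bp for 3730 genes at 10 to 100 FPKM, 5795 bp for 5903 genes at 1 to 10 FPKM and 3038.5 bp for 918 genes at 0. Their median GC content was 51.9%, 50.9%, 47.2% and 50.7%. In the 250-base windows upstream of start sites, the median ratio of observed to expected CpG was 0.864, 0.855 and 0.827 for genes at 100 or more, 10 to 100 and 1 to 10 FPKM. The letters TATAAA, searched on both strands, occurred in 9.76%, 4.20% and 5.03% of these windows and in 7.11% of all 12987 matched windows. For genes under 1 FPKM the comparison is void, since fewer than 80% of each class had a window in the RefSeq table.

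The 3 libraries had similar levels, and for genes at 1 FPKM or more the median spread exceeded counting error. Across the 6508 genes with a mean of at least 5 FPKM, 25 differed by more than 2-fold between replicates 1 and 2, 11 between 1 and 3, and 50 between 2 and 3. The median coefficient of variation was 13.4% for genes at 1 to 10 FPKM and 9.01% at 10 to 100 FPKM, where counting error alone would give 5.87% and 2.61%. Deviations followed GC content. In genes with the lowest GC content, 37.6% on average, replicate 2 deviated from the mean by a median of -0.12 and replicate 3 by 0.16 on the log2(FPKM + 1) scale. In those with the highest, 64.8% on average, replicate 2 deviated by 0.13 and replicate 3 by -0.10. Replicate 1 stayed within 0.034 of the mean in all 10 bins of GC content. The part of GC content in the levels of single genes was not tested.

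**Figure D5:**
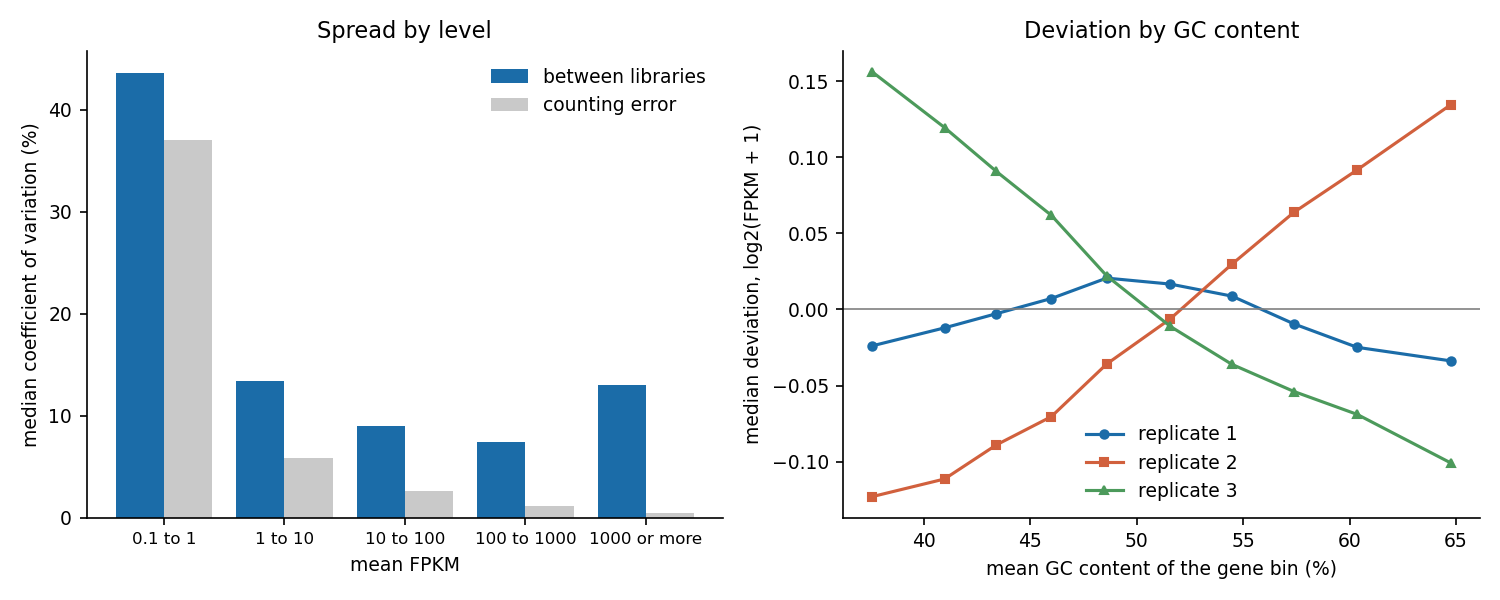
Median coefficient of variation between the 3 control libraries beside that of counting error, by mean FPKM (left, bars), and median deviation of each library from the mean on the log2(FPKM + 1) scale in 10 bins of gene GC content (right, points joined by lines). Replicates 2 and 3 run in opposite directions, by up to 0.13 and 0.16.

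In each of the 15 named genes that varied most among those with a mean of at least 5 FPKM, replicate 2 was either the highest or the lowest library. Over all 6508 genes with such a mean, replicate 2 was the highest in 2277 and the lowest in 2720. The ranking of the 15 leaves out genes with clone-like symbols or none, of which 3 varied at least as much as the last of the 15. With them counted, replicate 2 was the highest or the lowest in 14 of the 15 that varied most. One of the 3, ENSG00000281181, a lincRNA gene on chromosome 21, had 5.84, 183 and 50.4 FPKM, a wider spread than that of any named gene, and is given here after its values were seen. OLFM4, a secreted glycoprotein of gut and some tumours, had 3.55, 16.5 and 2.61 FPKM, and S100P, a calcium-binding protein, had 39.5, 135 and 30.7 FPKM. IGFL1 had 6.84, 11.8 and 2.14 FPKM and CPA4, a carboxypeptidase, 7.55, 14.2 and 3.77 FPKM. All 4 were highest in replicate 2 and lowest in replicate 3. MAOA, which breaks down amines, went the other way with 26.6, 8.83 and 24.4 FPKM, lowest in replicate 2, and so did C6orf15 (7.03, 2.78 and 13.4 FPKM) and the histone gene H2AC6 (15.6, 10.9 and 32.7 FPKM). EGR1, an immediate early factor, had 83.2, 88.03 and 28.1 FPKM, with replicate 3 apart. MT-ND1 had 2850.1, 4429.7 and 1566 FPKM. The remaining 6 were small RNA genes, RNU7-3P, RN7SL1, MIR5587, MIR5581, SNORD101 and a Y RNA, which rested on 1 to 204 reads per library. The other hairpins of the study target FAM83H-AS1, which RefSeq gives as a synonym of the protein-coding gene IQANK1. The IQANK1 model (ENSG00000203499) had 17.9, 17.5 and 14.3 FPKM here, and reads of the noncoding RNA cannot be told apart in it from those of other IQANK1 exons.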

How the data were processed

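RNA-seq was described in the 3 shNC libraries, grouped by their titles. The authors deposited FPKM values per gene. The submitters' processing notes list build hg38, HTSeq 0.6.0, Bowtie2 2.2.3 and HISAT2 2.1.0, with no role for any of them. For annotation release and strandedness nothing was given in the sources used here. A stray text line among 31005 was dropped. Symbols came from a gene name table (30883 genes) and GENCODE 29 (107 more), and gene models, GC content and exon overlap from GENCODE 29. Upstream sequences are from RefSeq.

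FPKM steps gave whole reads for 100% of genes within 1e-05. Depths were 15270673 to 17407557 reads. The count of 0 was given a limit of 3 reads over the 3 libraries, and limits cover counting error only. With 1 group there is no test: levels are FPKM per library with mean and SD, and lists are described by counts at 1 FPKM or more and under 0.1 FPKM. A count test on the recovered reads needs a second group and was not made. Members and lists were chosen with earlier results of these data known. Of 856 genes on 41 lists 728 were measured. The rule names the 4 markers, the 20 highest genes, members of lists of up to 20, the 8 highest and the first 8 under 0.1 FPKM of longer lists, the 15 most variable genes, and 3 runs of neighbours at each end; members not named are given by counts, a few genes and 1 run the rule names are not reported here, and ratios, overlaps and a few further members were picked for mention after their values were seen. Spread was measured on log2(FPKM + 1). Alternatives were other thresholds, scalings, pseudocounts and filters, and leaving out each library. Python 3.11.15, numpy 2.4.6, pandas 2.3.3 and matplotlib 3.10.9 were used.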

Additional observations from a re-analysis of the deposited data

How the results depend on the processing

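The number of genes at 1 FPKM or more in all libraries was 10540, and 10683 to 10801 when 1 library was left out; a threshold of 5 FPKM gave 6091. Genes at 0 in all libraries numbered 4603, and 5909 to 6509 with 1 library left out. This number depends on its definition: 9682 genes were under 0.1 FPKM in all 3, and 918 of those at 0 were protein-coding. The share of the 100 highest genes was 37.6% of FPKM, 36.8% to 38.9% with 1 library left out, 24.1% without mitochondrially encoded genes and 19.1% of the recovered reads, since FPKM weighs short genes more. Of the measured list members 389 reached 1 FPKM in all 3 libraries, 393 to 403 with 1 library left out and 250 reached 5 FPKM. Taken singly, the count of members at the threshold moved by over 1.5 times in 18 of 41 lists at 5 FPKM, in 5 at 0.5 FPKM, and in 2 without replicate 2, the EGFR family ligands and the chemokine receptors, each from 1 to 2 members; without replicate 1 or 3 it moved in 0. The median SD of log2(FPKM + 1) was 0.127 for genes with a mean of at least 5 FPKM, 0.0889 to 0.134 with 1 library left out, and 0.0859 without a filter on the mean. Without replicate 2 it was 0.0889. Mean levels of 751 single genes moved by no more than 1 SD under TPM and upper-quartile scaling. Both scalings kept the average scale of the 3 libraries, so a mean over them could hardly move. This outcome is therefore no check on the levels. No paired analysis was possible because the description covers 1 group and has no test. Short and rare transcripts rest on few reads, so levels near 0.1 FPKM are set mainly by counting error.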

Other observations

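HOX genes, which record position along the body axis, were expressed from part of their clusters. Of 32 measured 13 reached 1 FPKM in all 3 libraries, beside 58.6% of all protein-coding genes. HOXC12 (17.4, 20.1 and 19.3 FPKM), HOXC10 (19.8, 18.6 and 16.7 FPKM) and HOXC13 (7.97, 8.31 and 7.75 FPKM), from the end of the C cluster that is active at the rear of the body, and HOXB7 (18.03, 16.6 and 16.1 FPKM) were the highest 4. Of the 4 measured HOXD genes, HOXD12 (0.142 FPKM), HOXD13 (0.0257 FPKM), HOXD11 (0.0181 FPKM) and HOXD9 (at 0), none reached 1 FPKM. Neighbouring HOX models overlap, among them HOXA7 and HOXC5, so low values inside a cluster are uncertain.

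Cancer-testis genes, normally limited to germ cells, were a second uneven set. Of 15 measured 6 reached 1 FPKM in all 3 libraries, beside 58.6% of all protein-coding genes. MAGEA6 had 106, 99.2 and 108 FPKM and MAGEA3 92.4, 92.2 and 100.5 FPKM, although these are near-identical copies whose reads may be shared between them. CT83 had 25.4, 25.8 and 28.2 FPKM, PRAME 4.25, 5.45 and 5.36 FPKM and MAGEB2 1.42, 2.16 and 1.22 FPKM, while MAGEA1 had 0.148, 0.191 and 0.0671 FPKM, MAGEA4 0.0206, 0.0638 and 0 FPKM and MAGEA10 0 in all 3.

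S100 genes, which encode small calcium-binding proteins, reached 1 FPKM in all 3 libraries in 12 of 17 cases, beside 58.6% of all protein-coding genes. Together they held 0.839%, 0.819% and 0.787% of the summed FPKM. S100A4, S100A11 (411, 513 and 368 FPKM), S100A6 (415, 387 and 404 FPKM) and S100A14 (375, 379 and 395 FPKM) led, and S100A9 (144, 128 and 89.03 FPKM) exceeded its partner S100A8 (6.41, 5.66 and 3.22 FPKM) in every library. S100B, a marker of nerve and melanocyte lineages, had 1 read in all.

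Processed pseudogenes ranked high among genes that code for no protein. RPS28P7 had 752, 687 and 736 FPKM (rank 32), HMGB1P5 602, 496 and 633 FPKM and EEF1A1P5 370.3, 331 and 422 FPKM. These resemble abundant mRNAs, so their reads may stem from the parent genes, which was not tested. GAS5, a host gene of small nucleolar RNAs, had 99.5, 145 and 112 FPKM.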
